A study of Drosophila melanogaster with 2 samples.

Results

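The genes described here are 30 genes of neuronal differentiation and of the synapse: regulators of the neural fate, neuronal RNA-binding proteins, the machinery of transmitter release, ion channels, and proteins that make, move or sense transmitters. They were chosen by name, with earlier results of these data known. All 30 listed symbols were found among the 13968 protein-coding genes of the annotation. The study profiled by ChIP-seq where a CG3847-eGFP fusion protein sat on chromatin in Drosophila melanogaster embryos of 0 to 24 h, precipitated with an antibody against GFP from transgenic flies. There were 2 biological replicates of 1 group, so nothing was compared between conditions, and the control experiment was not used here. Whether untagged CG3847 was also made in these flies is not stated in the labels. Whole embryos of that age range were used, with neurons among many other cell types, so binding in few cells and weak binding in many cells cannot be told apart.

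In the fly embryo, neural stem cells called neuroblasts leave the ectoderm and divide into cells that become neurons and glia. Transcription factors first set the neural fate, RNA-binding proteins of the ELAV family then process neuronal transcripts, and late in embryogenesis neurons switch on the genes for action potentials and for transmitter release. At the presynaptic active zone, calcium entry through a channel makes SNARE proteins fuse a vesicle with the membrane, and the released transmitter opens receptors on the next cell.

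The pooled optimal set held 6148 peaks on the major chromosomes (2L, 2R, 3L, 3R, 4, X and Y), and the pooled ranked table held 123663 rows there, which include weak candidate peaks. Every peak of the optimal set has an irreproducible discovery rate (IDR), a measure that falls as the peak lists compared rank a peak more alike, of at most 0.01, which is a −log10 IDR of at least 2. The replicate sets held 4445 peaks for replicate 1 and 4339 for replicate 2. Signal below is what the peak caller assigned to a peak, on a scale no source used here explains. Read depth is likewise not given, so no value has a counting error, and the spread between both replicates is the only error at hand.

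Few of the 30 neuronal genes carried a CG3847-eGFP peak at a promoter. A summit of the optimal set lay within 500 bp of a transcription start site (TSS) in 5 of 30 neuronal genes, 16.7%, against 31.0% of all protein-coding genes. The 5 were the RNA-binding protein genes elav and fne, the neurexin gene Nrx-1 and the potassium channel genes Shab and eag. In the set of replicate 2 alone (without replicate 1) the count was 3, and in that of replicate 1 alone (without replicate 2) it was 2, against 26.4% and 23.8% of all protein-coding genes. Adding summits anywhere in the gene span brought in ChAT, Snap25 and pros, for 8 of 30 neuronal genes, 26.7%, against 35.4% of all protein-coding genes. That count was 4 of 30 without replicate 1, against 29.5% of all protein-coding genes, and 4 of 30 without replicate 2, against 27.6%.

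Neuronal genes are long, and a long span has more room for a peak. The median span was 27.3 kb for the 30 genes and 2.16 kb for all protein-coding genes, and 17 of the 30 spanned at least 20 kb, against 7.3% of all protein-coding genes. Among genes of at least 20 kb, 3 of 17 neuronal genes had a promoter summit, 17.6%, against 36.9% of all protein-coding genes of that length. A summit in the span or at a TSS was found in 6 of those 17 genes, 35.3%, against 63.4%. Among shorter genes, 2 of 13 neuronal genes, 15.4%, had a promoter summit, against 30.5% of shorter protein-coding genes. Those same 2 genes, elav and Nrx-1, made up the count for the span or a TSS, again 15.4%, against 33.1%. The neuronal genes thus had the lower share in both length classes and by both rules, without a test of the list.

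Per unit of length the optimal summits were sparser still. The 30 spans cover 1209 kb and held 8 optimal summits, or 0.662 per 100 kb, against 3.58 per 100 kb over all protein-coding genes and 2.72 per 100 kb over those of at least 20 kb. Those spans include 225 kb of Snap25. They also include 53.8 kb of cac and 44.5 kb of unc-13, where no ranked row used here lay. Both cac and unc-13 also count among the 30 genes in the shares above. Rows of the ranked table, most of them below the IDR threshold, numbered 767 in the spans, or 6.34 per 10 kb, against 9.62 per 10 kb over all protein-coding genes and 8.81 per 10 kb over the long ones. The median distance between a neuronal gene's nearest TSS and the nearest optimal summit was 11.8 kb, against 3.84 kb over all protein-coding genes. It exceeded 5 kb for 17 of the 30 neuronal genes, and for 44.7% of all protein-coding genes.

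**Figure D1:**
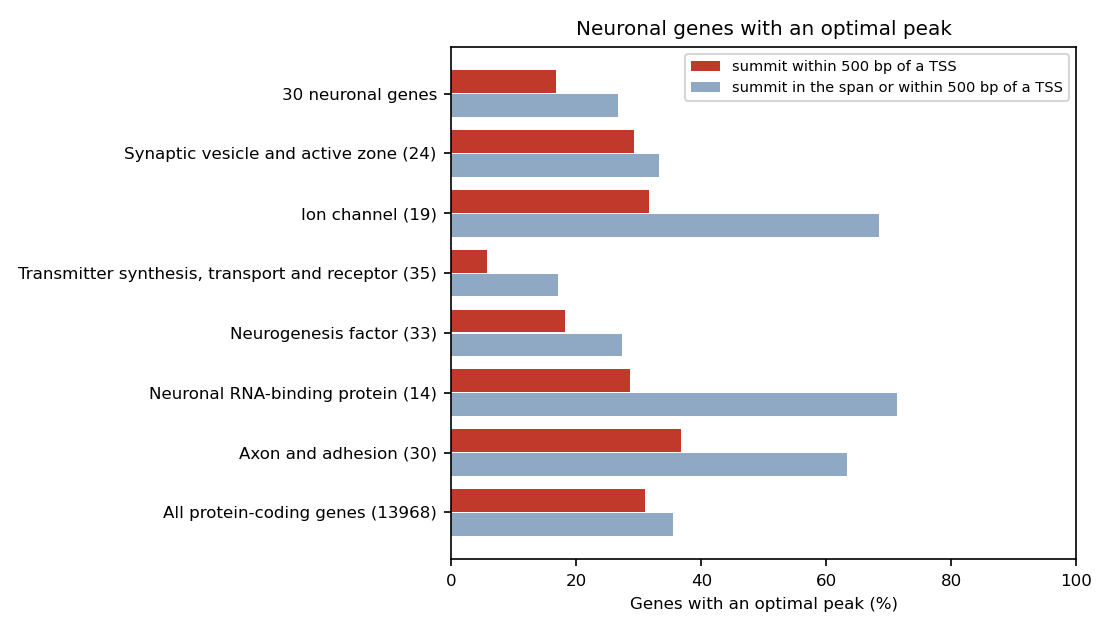
Percentage of genes with an optimal peak, by summit within 500 bp of a TSS (red) and by summit in the span or within 500 bp of a TSS (blue), for the 30 neuronal genes, 6 lists of related genes that hold none of them (number of genes in parentheses), and all protein-coding genes. The 30 genes stand at 16.7% and 26.7%, against 31.0% and 35.4% of all protein-coding genes.

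Both genes of ELAV-type RNA-binding proteins had a promoter summit, against 31.0% of all protein-coding genes, and each had a second summit in an intron. A count over 2 genes says little about the role, and the fne promoter summit itself lies in an intron, at an internal TSS. elav (FBgn0260400, X, minus strand, 13.99 kb), which encodes the RNA-binding protein that controls splicing and polyadenylation in neurons and is the usual marker of neurons, had the strongest peak of the 30 genes. Its signal was 1034, rank 77 of 6148, with 572 in replicate 1 and 459 in replicate 2. The summit lay 258 bp upstream of the elav TSS and 258 bp from that of the non-coding gene lncRNA:enrr, and it lies in the span of arg, so the peak cannot be given to elav alone. A second elav peak, 587 bp downstream of the TSS in an intron, had a signal of 320.2 and rank 830, with 166 in replicate 1 and 148 in replicate 2. It lies in the spans of arg and of lncRNA:enrr, so it cannot be given to elav alone either. Both elav peaks had the highest −log10 IDR, 5, and belonged to the conservative set and the sets of both replicates.

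The windows around these summits are shown because elav holds the strongest peak of the 30 genes and the pair differs in sequence. They are on dm6, minus strand, chrX:523384-523584 for the upstream summit and chrX:522539-522739 for the intronic one. Here and below, sequences are 5′ to 3′, and capitals mark matches on either strand to GAGAG, to ATCGATA, to GTCACAC or to CAGGTAG.
elav upstream: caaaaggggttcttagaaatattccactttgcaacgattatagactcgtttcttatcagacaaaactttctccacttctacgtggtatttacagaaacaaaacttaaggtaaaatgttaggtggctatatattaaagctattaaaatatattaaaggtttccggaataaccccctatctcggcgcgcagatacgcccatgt
elav intron: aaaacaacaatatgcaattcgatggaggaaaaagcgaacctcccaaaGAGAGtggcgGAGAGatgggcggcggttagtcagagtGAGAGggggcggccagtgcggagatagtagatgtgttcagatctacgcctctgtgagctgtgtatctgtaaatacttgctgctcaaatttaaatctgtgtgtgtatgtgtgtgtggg
The upstream window had no match to these motifs and a GC content of 36.3%. The intronic window had 3 GAGAG matches and a GC content of 48.3%. GAGAG is the core of the sequence bound by GAGA factor.

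fne (FBgn0086675, X, 32.9 kb), found in neurons, encodes a paralog of ELAV. Its stronger peak was intronic, 8528 bp downstream of a TSS, with a signal of 123 and rank 3334, and with 77.5 in replicate 1 and 49.3 in replicate 2. That peak was in the conservative set and in the set of replicate 1, and not in that of replicate 2. The peak that gives fne its place in the promoter count had a signal of 72.2, rank 5500, with 40.5 in replicate 1 and 37.97 in replicate 2. It was in neither replicate set nor the conservative set, and its summit, 497 bp upstream of an internal TSS, only just met the limit of 500 bp. Its window, chrX:12937920-12938120 on the plus strand, is shown as a weak promoter peak beside the strong one of elav.
fne promoter: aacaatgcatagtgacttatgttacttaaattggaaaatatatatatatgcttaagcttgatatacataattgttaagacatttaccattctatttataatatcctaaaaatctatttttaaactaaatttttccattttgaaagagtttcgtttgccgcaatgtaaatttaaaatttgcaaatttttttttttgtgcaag
No motif was found in it, and its GC content was 22.4%, the lowest of the member windows.

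**Figure D2:**
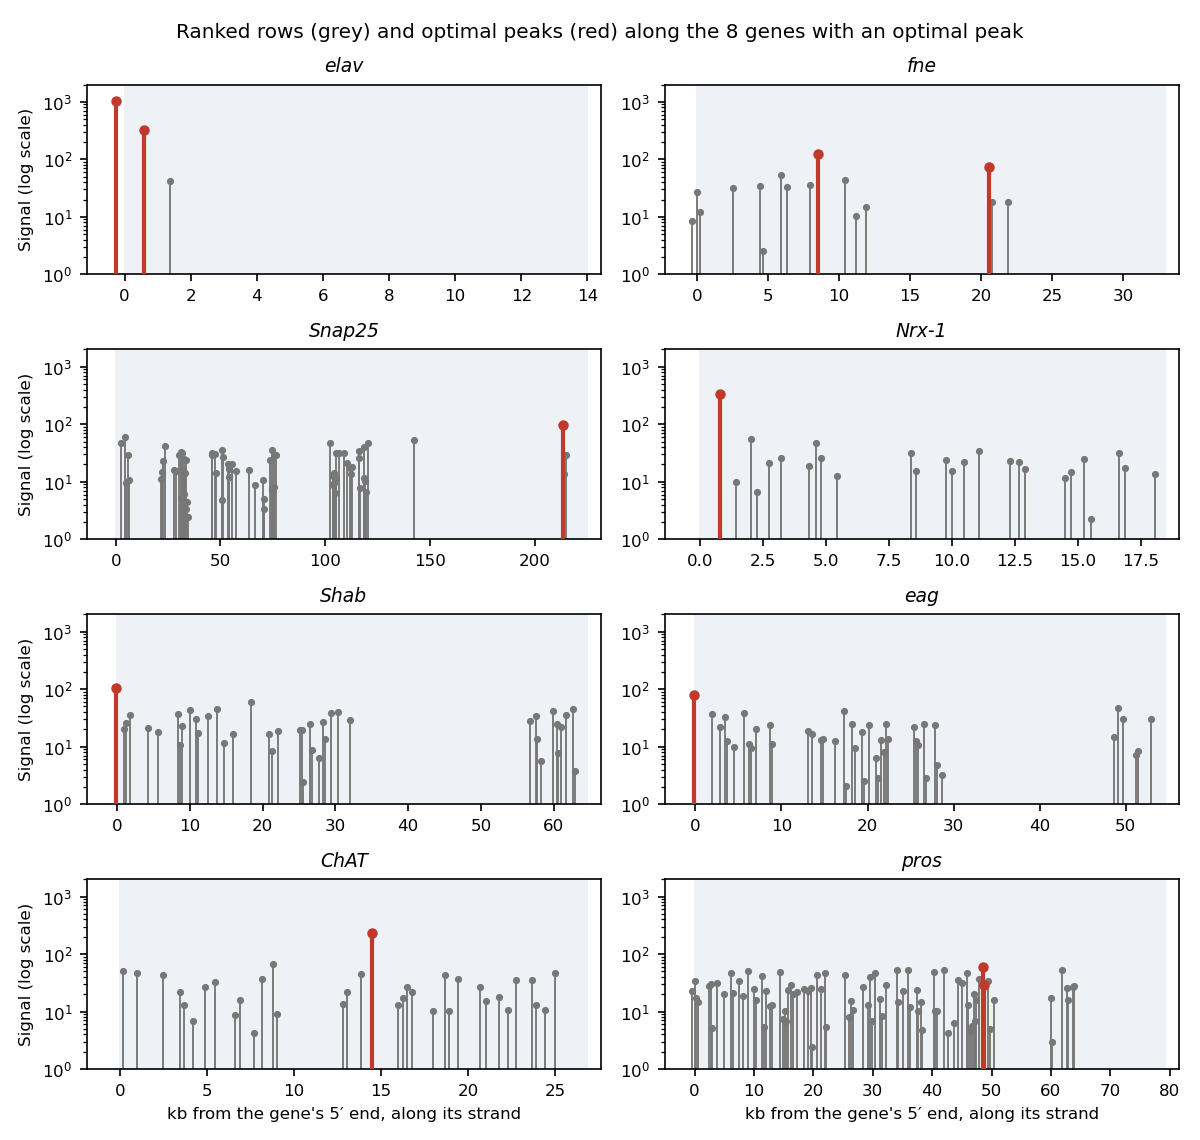
Signal (log scale) of ranked rows (grey) and optimal peaks (red) along the 8 neuronal genes with an optimal peak, with distance in kb from each gene's 5′ end along its strand and the gene span shaded. The peaks of elav, Nrx-1, Shab and eag stand at the 5′ end or close to it, and those of Snap25, ChAT and pros lie inside the gene.

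The SNARE and vesicle release genes had no promoter peak in the optimal set: 0 of 6, against 31.0% of all protein-coding genes. In groups this small, here and below, a count, be it 0 or more, says little about the role. Snap25 (FBgn0011288, 3L), which encodes a SNARE of the plasma membrane, had the only optimal peak of the group, in an intron 213747 bp downstream of its TSS in a gene of 225 kb. Its signal was 95.9, rank 4308, with 42.2 in replicate 2 and no overlapping row in the table of replicate 1. No ranked row lay within 500 bp of the Snap25 TSS. The strongest ranked rows at the TSSs of the other 5 genes had signals of 31.1 to 116, with a median of 35.9.

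Syx1A (FBgn0013343, 3R, minus strand, 4.16 kb), which encodes syntaxin, another SNARE of the plasma membrane, was the exception within this group. A ranked row of signal 116 and rank 3703 of 123663 had its summit 12 bp upstream of the TSS, with 33.5 in replicate 1 and 73.4 in replicate 2. Its −log10 IDR of 3.01 passes the threshold, yet the row is not in the optimal set used here. With such rows counted, 6 of 30 neuronal genes, 20%, had a promoter row past the IDR threshold, against 31.7% of all protein-coding genes. Of the 6319 ranked rows past the threshold, 171 were absent from the optimal set, and 1 of these lay at a TSS or in the span of a neuronal gene, that of Syx1A.

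The Syx1A gene lies within the span of eIF4EHP, which encodes a cap-binding protein, and 4 ranked rows past the threshold had summits within 5 kb of its TSS. The strongest, at chr3R:24108917-24109399, lay 3455 bp upstream and 118 bp from the TSS of CG18428, and is also within 500 bp of a TSS of eIF4EHP. Its signal was 1428, rank 38, with 796 in replicate 1 and 632 in replicate 2, above the elav peak in both replicates. A row 649 bp upstream had a signal of 127, with 80.3 in replicate 1 and 47.3 in replicate 2. Neither of these was in the optimal set. The only one that was, 4831 bp downstream of the TSS and beyond the gene's end, had a signal of 85.7, with 46.8 in replicate 1 and 40.95 in replicate 2. Per the deposited file descriptions an exclusion list entered the thresholded sets, and its part in these absences was not tested.

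Of the remaining release genes, cpx, whose product complexin binds the SNARE complex, came closest to the threshold at a promoter. Its row had a signal of 57.6 and a −log10 IDR of 1.40, with 37.3 in replicate 1 and 29.98 in replicate 2. nSyb, which encodes the SNARE on the vesicle, had a promoter row of 31.1, with 13.1 in replicate 1 and 25.4 in replicate 2. It also had a row at 5335 bp in a coding exon with a signal of 59.7 and a −log10 IDR of 1.71. That row had 36.9 in replicate 1 and no overlapping row in replicate 2. The row of Syt1, the calcium sensor gene, had a signal of 35.9, with 24.1 in replicate 2 and no row in replicate 1. Frq1, which encodes the calcium-binding protein frequenin, had a row of 33.6, with 20.8 in replicate 1 and 12.3 in replicate 2. All these rows fell short of the IDR threshold.

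Among the 5 active zone and synapse structure genes, 1, Nrx-1, had an optimal peak, at a promoter, against 31.0% of all protein-coding genes. Nrx-1 (FBgn0038975, 3R, plus strand, 18.5 kb) encodes neurexin, a presynaptic adhesion protein that binds partners across the cleft. The peak at chr3R:22469201-22469403 had its summit 125 bp downstream of an internal TSS, in the untranslated part of an exon, and a signal of 335, rank 763. That summit lies 0.794 kb from the gene's 5′ end. Replicate 1 gave 163 and replicate 2 gave 159, the pair with the ratio closest to equal among the member peaks, and the peak was in the conservative set and both replicate sets. Of its rows below the threshold, the one with the best IDR had a signal of 47.6.

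The other structure genes had weaker rows. brp, which encodes the scaffold of the active zone, had a promoter row of 56.1, with 33.5 in replicate 1 and 24.98 in replicate 2. futsch, whose product is a microtubule-associated protein of axons and nerve terminals, had a row of 56.04, with 35.7 in replicate 1 and 19.95 in replicate 2. Rim, a second scaffold gene, had only 18.2 at its TSS, but a row 16504 bp downstream in an intron had a signal of 71.7 and a −log10 IDR of 1.98, just under the threshold of 2. Its replicate values were 35.6 in replicate 1 and 27.3 in replicate 2. unc-13, the gene for the protein that primes vesicles for fusion, had no row used here.

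The 2 genes of sodium and calcium channels had no optimal peak, against a share of 35.4% with one over all protein-coding genes. para, the voltage-gated sodium channel gene that carries the action potential, had a promoter row of 35.3, with 16.7 in replicate 1 and 18.1 in replicate 2. cac encodes the presynaptic calcium channel. No ranked row used here lay in the span of cac on X, 53.8 kb, or of unc-13 on chromosome 4, 44.5 kb, in the pooled table or in that of either replicate. In the pooled table the stretch without rows around cac was 58.7 kb, and that around unc-13 was 445 kb, on a chromosome with 15 rows in all. These gaps say nothing on whether CG3847 binds there.

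Of the 6 potassium channel genes, 2 had an optimal peak, Shab and eag, each at the promoter, against 31.0% of all protein-coding genes. Each had a signal below the median of all optimal peaks, 132. Shab (FBgn0262593, 3L, plus strand, 64.6 kb), a voltage-gated channel of the delayed-rectifier kind, had a signal of 105 at 130 bp upstream of its TSS, rank 3946, with 63.2 in replicate 1 and 42.3 in replicate 2. eag (FBgn0000535, X, plus strand, 54.5 kb), the ether-a-go-go channel gene, had a signal of 80.1 at 143 bp upstream, rank 5078, with 34.8 in replicate 1 and 47.6 in replicate 2. The TSS of CG9030 lies 234 bp from the eag summit. Both peaks were in the conservative set, the Shab peak was in the set of replicate 2 only, and the eag peak was in neither replicate set.

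The windows of these promoters are shown to set the sequences of both channel genes side by side, at chr3L:2894787-2894987 for Shab and chrX:14955234-14955434 for eag, both on the plus strand.
Shab promoter: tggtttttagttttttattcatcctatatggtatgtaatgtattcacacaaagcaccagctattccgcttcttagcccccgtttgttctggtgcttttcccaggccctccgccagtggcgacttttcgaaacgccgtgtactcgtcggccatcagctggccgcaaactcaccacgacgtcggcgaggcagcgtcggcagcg
eag promoter: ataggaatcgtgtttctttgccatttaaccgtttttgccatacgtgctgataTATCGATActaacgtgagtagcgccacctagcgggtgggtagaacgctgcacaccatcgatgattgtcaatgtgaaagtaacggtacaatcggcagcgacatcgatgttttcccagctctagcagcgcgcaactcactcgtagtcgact
The eag window held 2 ATCGATA matches that overlap on opposite strands, seen as a single block of capitals. ATCGATA is the core of the element bound by DREF. The Shab window had none of the 4 capitalised motifs, and its GC content was 53.2%, against 48.3% in the eag window.

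The other 4 potassium channel genes had rows of 19.9 to 52.1 at their promoters, none past the threshold. Shal, whose product carries a fast-inactivating current, had the strongest, 52.1, with 38.2 in replicate 2 and no row in replicate 1. Sh, the Shaker channel gene, has 8 TSSs and a span of 139 kb, and its strongest promoter row reached only 36.5, with 31.5 in replicate 1 and 23.03 in replicate 2. slo, the calcium-activated channel gene, had 27.03, with 22.6 in replicate 1 and 10.8 in replicate 2. Shaw, a further voltage-gated channel gene, had 19.9, with 7.97 in replicate 2 and no row in replicate 1.

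**Figure D3:**
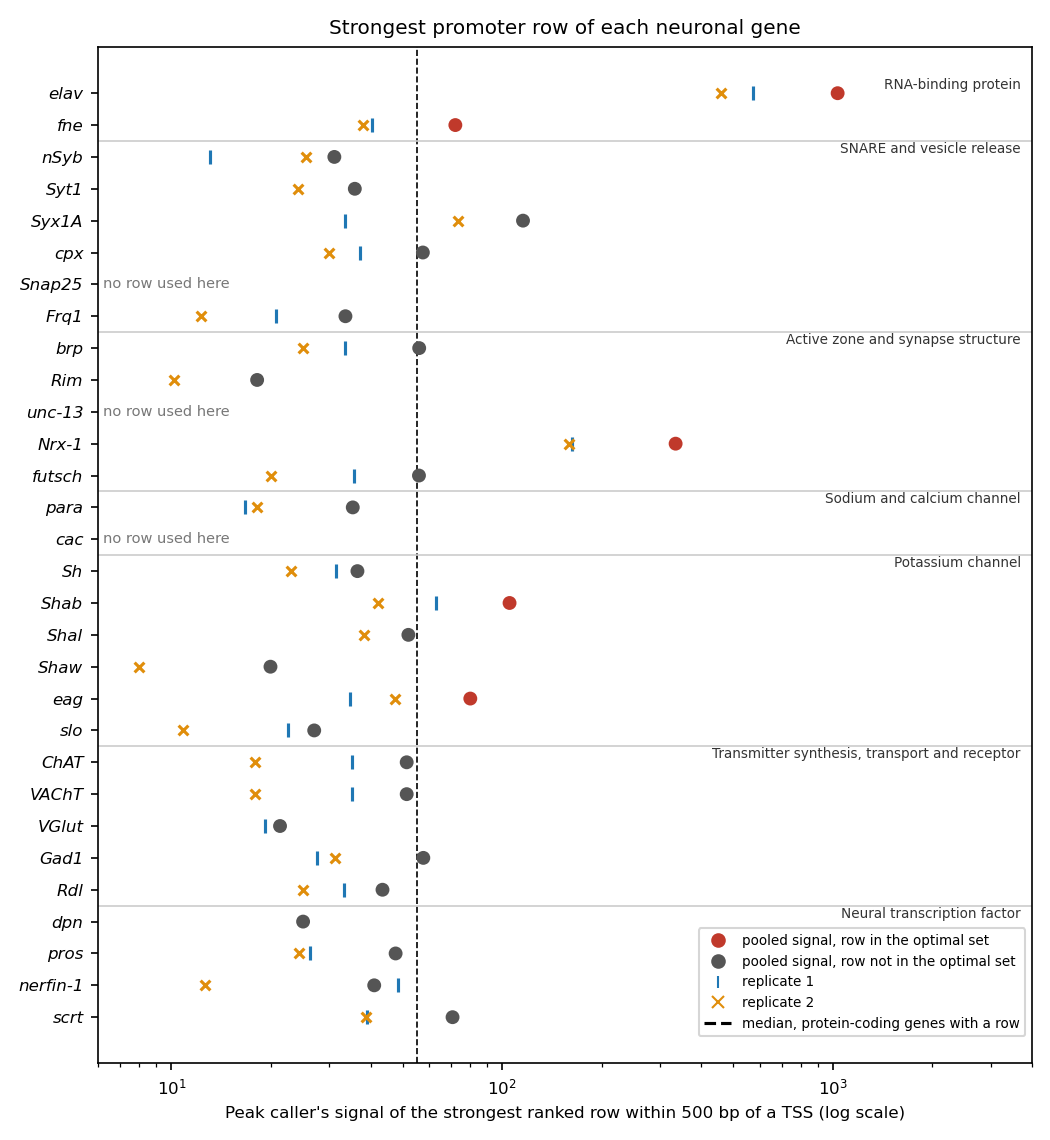
Signal (log scale) of the strongest ranked row within 500 bp of a TSS for each of the 30 neuronal genes, grouped by role, with circles for the pooled table (red where the row is in the optimal set), bars for replicate 1 and crosses for replicate 2; the dashed line is the median over all protein-coding genes with such a row. elav at 1034 and Nrx-1 at 335 stand far to the right, Syx1A at 116 lies outside the optimal set, and 11 of the 27 genes with a row lie right of the dashed line at 55.2.

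None of the 5 genes for transmitter synthesis, transport and reception had a promoter peak, against a share of 31.0% with one over all protein-coding genes. ChAT (FBgn0000303, 3R, plus strand, 26.8 kb), which encodes the enzyme that makes acetylcholine, had an intronic peak 14489 bp downstream of its TSS. Its signal was 236, rank 1403, with 126 in replicate 1 and 109 in replicate 2, and it was in the conservative set and both replicate sets. The summit lay 367 bp from the TSS of lncRNA:CR46265, so this peak too stands at another gene's start. VAChT, the vesicular transporter for acetylcholine, starts at the same TSS as ChAT and lies inside it, and the intronic peak is beyond its end.

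The shared ChAT and VAChT promoter had a row of 51.5, with 35.1 in replicate 1 and 17.9 in replicate 2. Gad1, which encodes the enzyme that makes GABA, had a promoter row of 57.8 and a −log10 IDR of 1.41, with 27.5 in replicate 1 and 31.1 in replicate 2. The summit of that row also lies in the span of CG14989, 433 bp from a TSS of CG14989. The GABA-gated chloride channel gene Rdl had 43.5, with 33.2 in replicate 1 and 25.04 in replicate 2. None of these rows passed the IDR threshold. That of VGlut, the vesicular glutamate transporter gene, was the lowest of this role at 21.3, with 19.2 in replicate 1 and no row in replicate 2.

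The 4 neural transcription factor genes had no promoter peak either, against the same 31.0% of all protein-coding genes. pros (FBgn0004595, 3R, plus strand, 79.2 kb) encodes a homeodomain factor that enters the nucleus of the neuroblast's daughter and ends its divisions. It had 2 overlapping optimal peaks in a coding exon, 4251 and 4451 bp downstream of an internal TSS, with signals of 60.5 and 29.1 and ranks of 5858 and 5951 of 6148. Both overlap the same replicate rows, 32.8 in replicate 1 and 26.99 in replicate 2, and neither was in a replicate set or the conservative set. They were among the weakest peaks of the optimal set.

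dpn, which encodes a repressor that keeps neuroblasts in their stem cell state, had a promoter row of 25.01, with no overlapping row in either replicate table. nerfin-1, a zinc finger factor gene needed for neurons to stay differentiated, had 41.04, with 48.5 in replicate 1 and 12.6 in replicate 2. scrt, a zinc finger factor of the Snail family made in most neurons, had the highest promoter signal of this group, 70.8, with 39.2 in replicate 1 and 38.7 in replicate 2. Yet the −log10 IDR of the scrt row was only 0.14, far under the threshold, although its signal was close to that of the fne promoter peak, 72.2, which passed. Signal alone therefore did not order the rows as the IDR did.

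Of the 30 genes, 27 had a ranked row, however weak, within 500 bp of a TSS, 90.0%, against 78.4% of all protein-coding genes. The median of the strongest such row was 51.5 over those 27 genes and 55.2 over the 10954 protein-coding genes with one. For genes without an optimal promoter peak, the median was 42.3 over 22 neuronal genes, against 35.4 over 6624 protein-coding genes. The medians lay close over all genes with a row, and the neuronal one was the higher among genes without an optimal promoter peak. Each value is the strongest row over all TSSs of a gene, of which these neuronal genes have 1 to 8. The number of TSSs was not matched in these comparisons. Snap25, unc-13 and cac have no row and enter neither median.

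**Figure D4:**
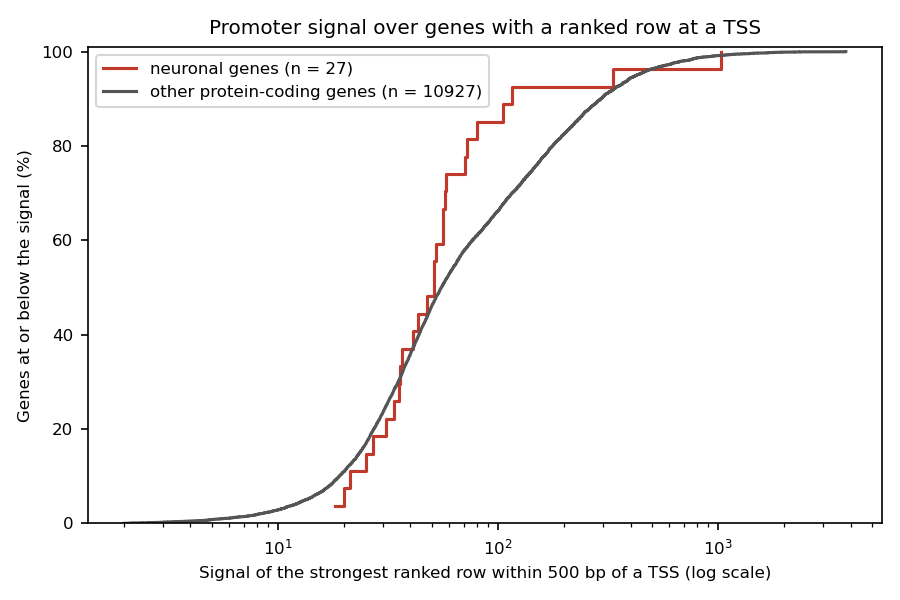
Cumulative percentage of genes against the signal (log scale) of the strongest ranked row within 500 bp of a TSS, for the 27 neuronal genes with such a row (red) and the other protein-coding genes with one (grey). The curves run close together up to the medians, 51.5 and 55.2, and part above them, where most neuronal genes have already been counted.

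The 11 optimal peaks at neuronal genes ranged in rank from 77 to 5951 of 6148. Their median signal was 105, against 132 over all 6148 optimal peaks, and 4 of the 11 exceeded the median of all. They were the 2 elav peaks, the Nrx-1 peak and the ChAT peak, and the same 4 were in both replicate sets, against 55.1% of all optimal peaks. The conservative set held 7 of the 11, against 85.3% of all optimal peaks. Neither replicate set held 5 of the 11, against 19.8% of all optimal peaks. Each replicate set held 5 of the 11. Counted anew among the peaks of a single replicate's own set, the peaks at neuronal genes numbered 5 without replicate 1 and 7 without replicate 2.

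Between replicates, the signal was higher in replicate 1 for 9 of the 10 peaks with a row in both, with eag the exception, and both pros peaks share their rows. The log2 ratio of replicate 1 to replicate 2 had a median of 0.25 (SD 0.31, n = 10 peaks), against 0.17 (SD 0.54, n = 6067 peaks) over all optimal peaks. The offset at the neuronal genes thus lay within the spread over all optimal peaks.

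**Figure D5:**
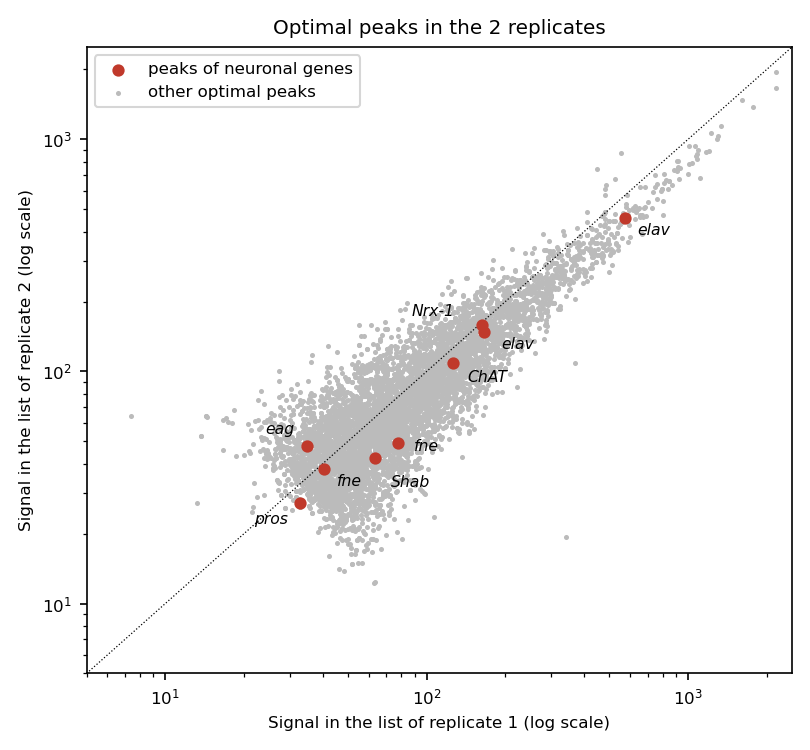
Signal in the list of replicate 1 (x axis) and of replicate 2 (y axis), both on log scales, for optimal peaks of neuronal genes (red, labelled by gene; the pros peaks share a point) and the other optimal peaks (grey), with the line of equal signal dotted. The elav promoter peak is at 572 and 459, and eag is the labelled gene above the line.

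Motifs were searched on both strands in windows as long as those printed, centred on each optimal summit. GAGAG was found in 2 of the 11 member windows, the elav intron and a pros window whose 8 overlapping matches form a GA repeat, against 21.7% of all optimal windows. ATCGATA was found in 2, those of eag and Snap25, against 12.7%. GTCACAC, part of the core promoter element bound by M1BP, was in 0 of 11 windows, against 7.53%. CAGGTAG, the heptamer bound by Zelda, was in 0 of 11, against 0.96%. CANNTG, the E-box bound by basic helix-loop-helix factors, was in 6 of 11 windows, of ChAT, Shab, Snap25, fne and pros, against 61.5%. The median GC content was 47.3% in the member windows, against 37.3% in all optimal windows.

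Related neuronal genes were counted in 6 lists that hold none of the 30, without a test between lists. Of 155 such genes found, 36 had a promoter summit, 23.2%, against 31.0% of all protein-coding genes. A summit in the span or at a TSS was found in 65, 41.9%, against 35.4%, and 80 of the 155 genes span at least 20 kb, a length at which the share was 63.4% over all protein-coding genes. The promoter shares of the vesicle, ion channel, RNA-binding protein and axon lists, given next, lie near the 31.0% of all protein-coding genes. Neuronal RNA-binding protein genes had a promoter summit in 4 of 14, 28.6%, led by msi, which encodes Musashi, at 1009. A summit in the span or at a TSS was found in 10 of 14, 71.4%, and 10 of these 14 genes span at least 20 kb. By the same count the ion channel list reached 68.4%, with 13 of 19 genes of at least 20 kb. The axon and adhesion list reached 63.3%, with 22 of 30 genes of that length. The vesicle list had 33.3%, the neurogenesis list 27.3% and the transmitter list 17.1%. All 6 lists mix long and short genes. The share was 63.4% over protein-coding genes of at least 20 kb and 33.1% over shorter ones, so neither is a matched value for a list. Among axon and adhesion genes the promoter count was 11 of 30, 36.7%, led by the netrin receptor gene unc-5 at 245, the cytoskeletal linker gene shot at 225 and the adhesion gene Nrg at 225.

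Further synaptic vesicle and active zone genes had a promoter summit in 7 of 24, 29.2%, led by AP-2alpha at 479.7, Arl8 at 186, alphaSnap at 145 and Rop at 129, genes for membrane traffic and SNARE handling that cells other than neurons use too. Those summits also lie within 500 bp of a TSS of ebi for AP-2alpha, of CG9667 for Arl8 and of Ras64B for Rop. Further ion channel genes had one in 6 of 19, 31.6%. The strongest, NaCP60E at 622, shares its peak with the ribosomal protein gene RpL41, that of sei at 169.9 lies at gammaSnap1 as well, and that of Irk1 at 169 at CG46310. The transmitter list was the lowest, with 2 of 35 promoters, 5.71%, those of Tbh, which makes octopamine, at 83.9 and Grd, a receptor subunit gene, at 67.1 and shared with Ir75c, beside 0 of 5 among the genes for the same role described above. Neurogenesis factor genes had a promoter summit in 6 of 33, 18.2%, led by numb, a Notch inhibitor sorted to 1 daughter cell, at 752, and by the zinc finger factor genes chn at 452 and lola at 239.6, the last shared with asRNA:CR45135.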

How the data were processed

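Peak sets of CG3847-eGFP ChIP-seq, 2 replicates numbered by the labels, were analysed on dm6. Per the labels, chromatin was sonicated to 200 to 800 bp. Aligner, peak caller and control handling: not given in the sources used here. As deposited, the score expresses the IDR on a scale up to 1000, with 830, the lowest thresholded value, for a global IDR of 0.01. As deposited, the signal is the caller's value per peak, used to describe and rank peaks within a table. The authors' ranked tables give −log10 of the global IDR, up to 5. The summit's offset was also deposited. Of 6174 optimal peaks, 6148 lie on the major chromosomes, and of 126316 ranked rows, 123663. A further ranked table was not used here.

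Genes are those of Ensembl release 115 (FlyBase 6.54), and sequences were read from the Release 6 reference. Summits within 500 bp of any TSS, or in the span, were given to a gene. A replicate's value is that of its strongest ranked row overlapping by at least 1 bp. The rule names all 30 genes and, per related list, at most the 4 with the strongest promoter peak. Syd-1, listed with the vesicle genes, was not matched. The members and lists were chosen with earlier results of these data known. No test was run, since the design has 1 group. Python 3.11.15, pandas 2.3.3, NumPy 2.4.6 and matplotlib 3.10.9 were used, and the assignment of peaks to genes was tested on simulated data. Alternatives were other peak sets, thresholds, windows and spans, and each replicate left out.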

Additional observations from a re-analysis of the deposited data

How the results depend on the processing

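The count of neuronal genes with a promoter peak was 5 of 30 in the optimal set, against 31.0% of all protein-coding genes. It was 3 without replicate 1 (against 26.4%) and 2 without replicate 2 (23.8%). It was 2 at a global IDR of at most 0.001 (23.5%) and 2 in the stronger 50% of the peaks (20.5%). It was 3 with a TSS window of 200 bp (24.5%), 3 with 1 TSS per gene (29.0%) and 27 with every ranked row (78.4%). The count for the span or a TSS, 8 in the optimal set, was 4 with either replicate left out (against 29.5% of all protein-coding genes without replicate 1 and 27.6% without replicate 2), 4 at the stricter IDR (26.7%), 3 in the stronger 50% (23.4%), 28 of 30 with every ranked row (86.2%) and 11 with the span extended by 1000 bp (41.5%). The peaks at neuronal genes, 11 in all, numbered 7 in the conservative set, 5 to 7 with a replicate left out, 5 at the stricter IDR, 4 in the stronger 50% and 772 with every ranked row. Their median signal was 70.4 by the replicate 1 list and 47.6 by the replicate 2 list, which are values of single libraries. Under the other alternatives the promoter count was 4 to 6, against 30.3% to 34.4% of all protein-coding genes. The count for the span or a TSS was 6 to 9, against 34.6% to 37.3%, and the peaks past the threshold numbered 12. With every ranked row the promoter share was above that of all protein-coding genes, 78.4%, and in all other alternatives run it was below theirs. The stricter sets hold fewer peaks, and the cause of these changes was not tested. No paired analysis was possible because there is 1 group. Depth is unknown, and with 2 libraries no spread beyond their difference can be given.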
